A study of Mus musculus with 6 samples.

Results

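Chromatin modifier and remodeller genes were examined in cone photoreceptors sorted from retinas of adult mice with a cone-specific deletion of the clock gene Bmal1 and of their controls. The genes were chosen by name from families of histone methyltransferases and demethylases, acetyltransferases and deacetylases, bromodomain proteins, ATP-driven remodellers and enzymes of DNA methylation, and 110 of the 9720 protein-coding genes in the table carried such a name. Kdm5c, Kdm5d and Kdm6a were not included. Knockout cones came from animals of the genotype HRGPcre;Bmal1f/f;Z/EG and control cones from animals of the genotype HRGPcre;Bmal1f/+;Z/EG, with 3 libraries per group. Both groups were thus on a mixed C57BL/6 background and carried HRGPcre, a Cre transgene driven by human cone opsin regulatory sequence, and the Z/EG reporter, which makes eGFP after Cre has acted. A control cone keeps 1 functional Bmal1 copy after recombination, although the series text calls these animals wild type. Per the labels the mice were aged 60 to 80 postnatal days, with 2 to 6 months also stated, and were kept in a cycle of 12 h light and 12 h darkness, and each library was made from 100 ng of RNA. The labels state neither the hour at which retinas were taken nor how many animals went into a library. The spread that p-values measure is therefore that between these libraries, and it may be technical.

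Arntl, the gene that encodes BMAL1, read 3.37, 2.28 and 3.48 FPKM in knockout cones, against 3.0, 2.60 and 3.27 FPKM in control cones, with overlapping groups. This is a value over all of its exons, and no source used here says which stretch is floxed, so it is no check of the genotypes. Values were FPKM, the fragments of a transcript relative to its length and to the size of the library. Length is thus divided out, but other differences between genes, such as base composition, may remain, so levels of different genes compare only roughly. Depth is unknown. Control 1 stood apart, with a mean correlation of 0.899 to the other libraries across genes against 0.929 to 0.946 for the other 5, and it was the lowest or highest of the 6 libraries for 49 of the 106 chromatin genes tested (46.2%), against 54.8% of all tested genes. In control 3 a single gene model, Gm17364, held 10.03% of the FPKM sum. All 13 cone markers were present, with summed levels of 5614 to 6757 FPKM in knockout and 4174 to 6988 FPKM in control libraries, and so were all 15 rod markers, at 2654 to 3740 FPKM in knockout and 3095 to 3806 FPKM in control libraries. The 7 of 10 Müller glia and 9 of 11 bipolar markers in the table summed to 101 to 111 and 97.7 to 109.9 FPKM in knockout libraries and to 91.8 to 120.2 and 87.1 to 123.6 FPKM in control libraries. The ganglion cell markers, 3 of 10 in the table, summed to 2.07 to 2.32 FPKM in knockout libraries and to 23.9, 2.99 and 2.63 FPKM in controls 1, 2 and 3. Most of the sum in control 1 was Stmn2 alone, at 21.1 FPKM. Rbpms was also higher there than in controls 2 and 3 (1.94 against 0.581 and 0.804 FPKM), whereas Nefl was lower (0.890 against 2.21 and 1.16 FPKM). Amacrine and horizontal markers (2 of 11 in the table), microglia and blood markers (2 of 11) and pigment epithelium and vascular markers (1 of 10) summed to at most 8.15, 5.39 and 1.30 FPKM in any knockout library and to at most 11.2, 4.39 and 0.812 FPKM in any control library. In bulk RNA, fewer cells of a type and less RNA per cell cannot be told apart.

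Chromatin modifiers write, erase or read chemical marks on histones and DNA, and remodellers use ATP to slide, eject or exchange nucleosomes, so that together they set which genes a cell can use. BMAL1 and its partner CLOCK bind E-box elements and recruit the acetyltransferases p300 and CBP. The methyltransferase MLL1 and the demethylase KDM5A act at their targets, the deacetylase SIRT1 opposes acetylation by CLOCK, and the REV-ERB repressors act through NCoR and HDAC3. In the retina, mature rods of the mouse pack their heterochromatin in the centre of the nucleus, whereas cones keep a more usual layout.

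No chromatin gene passed the test between knockout and control cones. Of the 110 genes, 106 reached an average of 1 FPKM across the libraries and were tested with limma on log2(FPKM + 1), and 0 had an adjusted p under 0.05, where 0.104% of all 8627 tested genes did (0.0464% higher and 0.058% lower in knockout cones). At an unadjusted p under 0.05 there were 2 genes, Kdm4b and Arid5b, both lower in knockout cones, or 1.89% of the members against 5.49% of all tested genes (1.53% higher and 3.96% lower). The median log2 difference was 0.01 for the 106 genes and -0.02 for all tested genes, and the median size of the difference, sign aside, was 0.14 and 0.17. Of the 106, 55 (51.9%) had a positive difference, against 47.4% of all tested genes. The differences ranged from -0.56 for Arid5b to 0.70 for Brd7. For scale, Nr1d1, the clock repressor gene that BMAL1 drives through E-boxes, read 2.87, 4.62 and 4.91 FPKM in knockout cones, against 38.3, 47.1 and 56.3 FPKM in control cones in the same libraries (log2 change -3.24 ± 0.25, SE, adjusted p = 0.000133, limma).

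**Figure D1:**
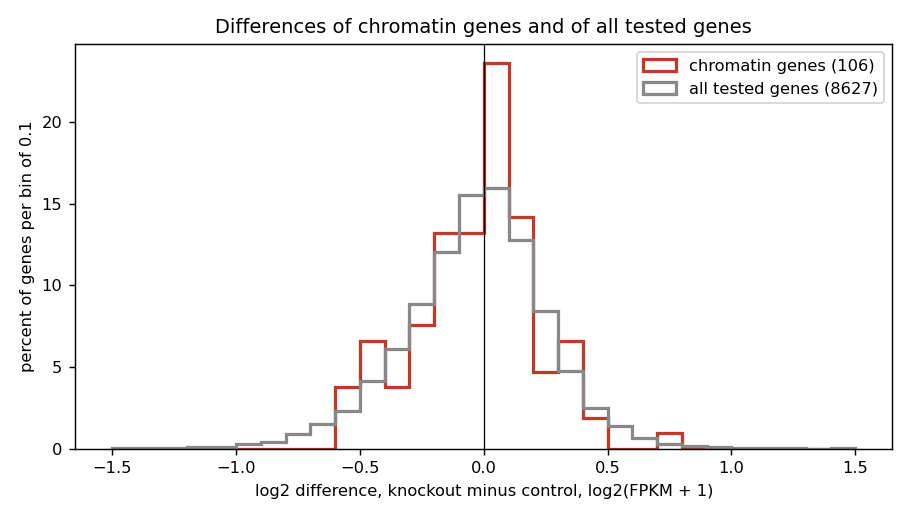
Percent of genes in bins of 0.1 of the log2 difference, knockout minus control, for the 106 tested chromatin genes (red) and all 8627 tested genes (grey). Both centre near 0, and 22 of all tested genes but 0 chromatin genes lie outside the axis limits of -1.5 and 1.5.

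The intervals give a range for the difference of each gene, taken gene by gene and without adjustment for the number of genes. The 95% interval from limma of the log2 difference stayed within -1 and 1 for 95 of the 106 genes (89.6%), against 85.4% of all tested genes. It reached past that range for Arid4b, Arid5b, Brd3, Brd7, Chd1l, Hdac5, Kmt2b, Prmt1, Prmt3, Setd1a and Sirt2. On the log2(FPKM + 1) scale the difference of genes near 1 FPKM is understated. After scaling of the libraries, the genes at an unadjusted p under 0.05 split into 3 higher and 2 lower with median ratios and into 3 higher and 1 lower with equal FPKM sums, in place of 0 higher and 2 lower. The shares of all tested genes were then 2.83% higher and 3.93% lower with median ratios, and 3.04% and 3.33% with equal sums. The 3 higher genes were Arid4b, Brd7 and Suz12 in both. Without control 1, they were 0 higher and 6 lower (1.52% and 8.58% of all tested genes), the lower ones being Sirt6, Sirt2, Prmt1, Kdm4b, Smarcb1 and Hdac1, and their smallest adjusted p in limma was 0.379. Leaving out any other library also moved these counts. They were 0 higher and 1 lower without knockout 1 (1.16% and 2.14% of all tested genes) and 1 and 0 without knockout 2 (0.974% and 2.14%). They were 1 and 5 without knockout 3 (1.74% and 5.18%), 0 and 4 without control 2 (1.25% and 4.17%), and 4 and 0 without control 3 (3.86% and 2.7%). In percent of the 106 members, 5 and 4 genes are 4.72% and 3.77%.

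**Figure D2:**
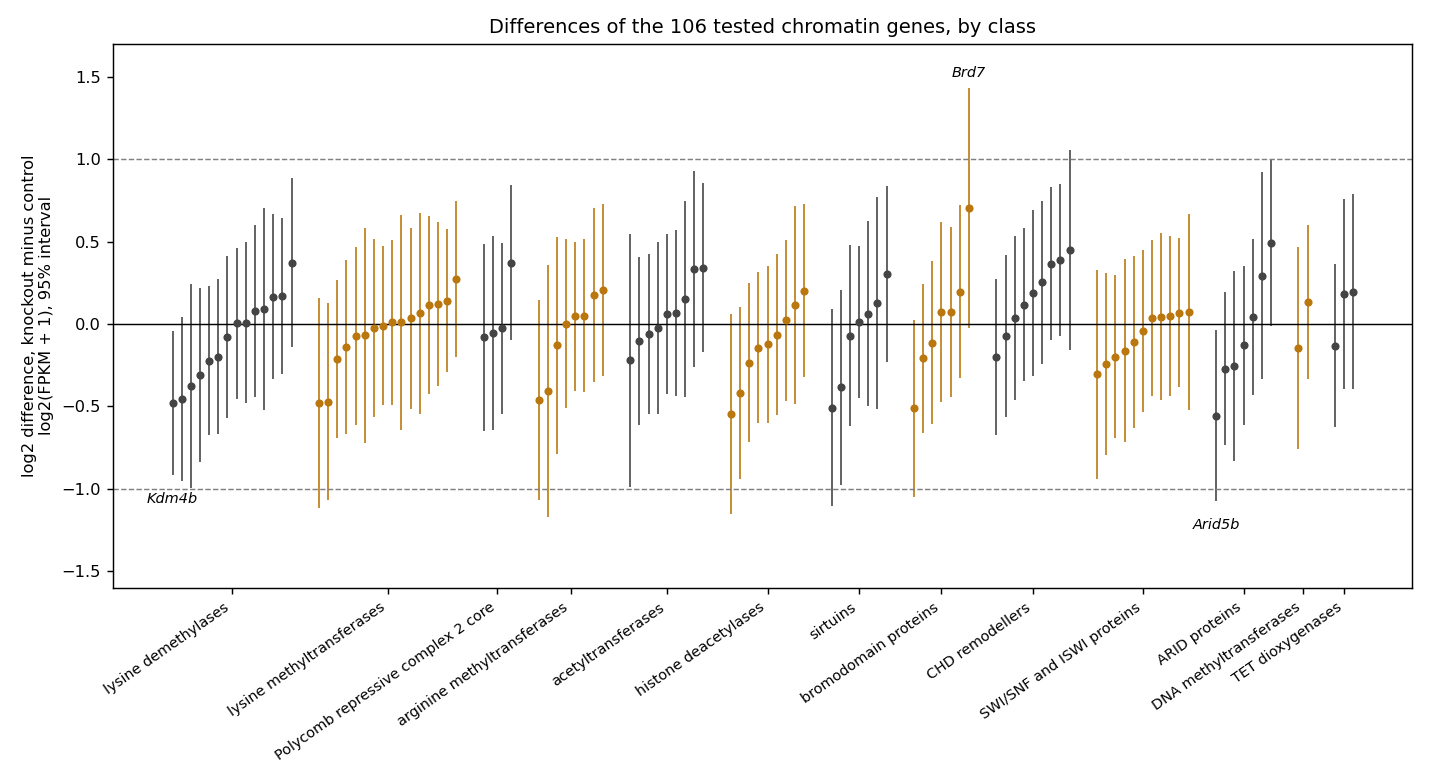
Log2 difference, knockout minus control, on the log2(FPKM + 1) scale for the 106 tested chromatin genes, ordered by size within each class, with 95% intervals from limma. Dashed lines mark -1 and 1, and only the intervals of Kdm4b and Arid5b leave out 0.

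Knockout and control values did not overlap for 9 of the 106 genes (8.49%, against 9.39% of all tested genes), 6 higher and 3 lower in knockout cones, and the share of all tested genes was 3.52% higher and 5.87% lower. With median-ratio scaling the counts were 8 and 8 (7.55% each), against 6.56% and 6.13% of all tested genes. Without control 1 they were 7 and 10 (6.60% and 9.43%), against 5.2% and 19.1% of all tested genes. Kdm4b, a demethylase of histone H3 lysine 9 and lysine 36, lies on the plus strand of chromosome 17 between 56326062 and 56402870 (GRCm38) and read 1.32, 1.40 and 1.51 FPKM in knockout cones, against 2.23, 2.26 and 2.59 FPKM in control cones. Its log2 difference was -0.48 ± 0.20 (SE, 95% interval from -0.92 to -0.04, adjusted p = 0.897, limma), and every knockout value was below every control value. Arid5b, a DNA-binding protein that partners with the demethylase PHF2, lies on the minus strand of chromosome 10 between 68092520 and 68278740 and read 1.37, 0.651 and 1.40 FPKM in knockout cones, against 2.72, 1.61 and 2.08 FPKM in control cones (log2 difference -0.56 ± 0.24, SE, adjusted p = 0.897, limma). Both genes were expressed at low levels, where the pseudocount weighs most. With a pseudocount of 0.1 in place of 1, the log2 difference was -0.89 for Arid5b and -0.70 for Kdm4b. The third lower gene was Kdm5b, which removes methyl groups from histone H3 lysine 4, at 10.5, 10.3 and 10.1 FPKM in knockout cones, against 12.8, 10.7 and 13.2 FPKM in control cones. Its knockout libraries lay close to each other and just below control 2.

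Of the 6 higher genes, Brd7 had the largest difference. Brd7 encodes a bromodomain subunit of the PBAF remodelling complex, lies on the minus strand of chromosome 8 between 88331039 and 88362194 and read 11.7, 10.9 and 10.2 FPKM in knockout cones, against 2.88, 8.10 and 10.1 FPKM in control cones. Control 1 was far below the other libraries, and without it the log2 difference was 0.25, against 0.70 with it. Arid4b, which encodes a subunit of the SIN3 deacetylase complex, read 13.2, 14.9 and 9.97 FPKM in knockout cones, against 6.98, 9.27 and 9.79 FPKM in control cones, and its lowest knockout value barely exceeded control 3. Exons of Arid4b share 257 bp with those of Ggps1 on the opposite strand, and whether the counting used strand is not stated in the labels. The remodeller genes Chd9 and Chd6 and the Polycomb gene Suz12 also had every knockout value above every control value. Chd9 read 12.2, 12.5 and 10.9 FPKM in knockout cones, against 9.65, 7.55 and 9.39 FPKM in control cones. Chd6 read 16.4, 19.5 and 18.3 FPKM in knockout cones, against 12.6, 15.5 and 13.3 FPKM in control cones. Suz12, a subunit needed for the activity of Polycomb repressive complex 2, read 13.6, 13.2 and 13.6 FPKM in knockout cones, against 9.34, 9.02 and 12.4 FPKM in control cones. Its knockout libraries were close together, and control 3 was nearest to them. Setdb2, a member of the family of histone H3 lysine 9 methyltransferases, differed little, at 2.58, 2.84 and 2.48 FPKM in knockout cones, against 2.30, 2.31 and 2.28 FPKM in control cones. The smallest adjusted p in limma among these 6 genes was 0.897.

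**Figure D3:**
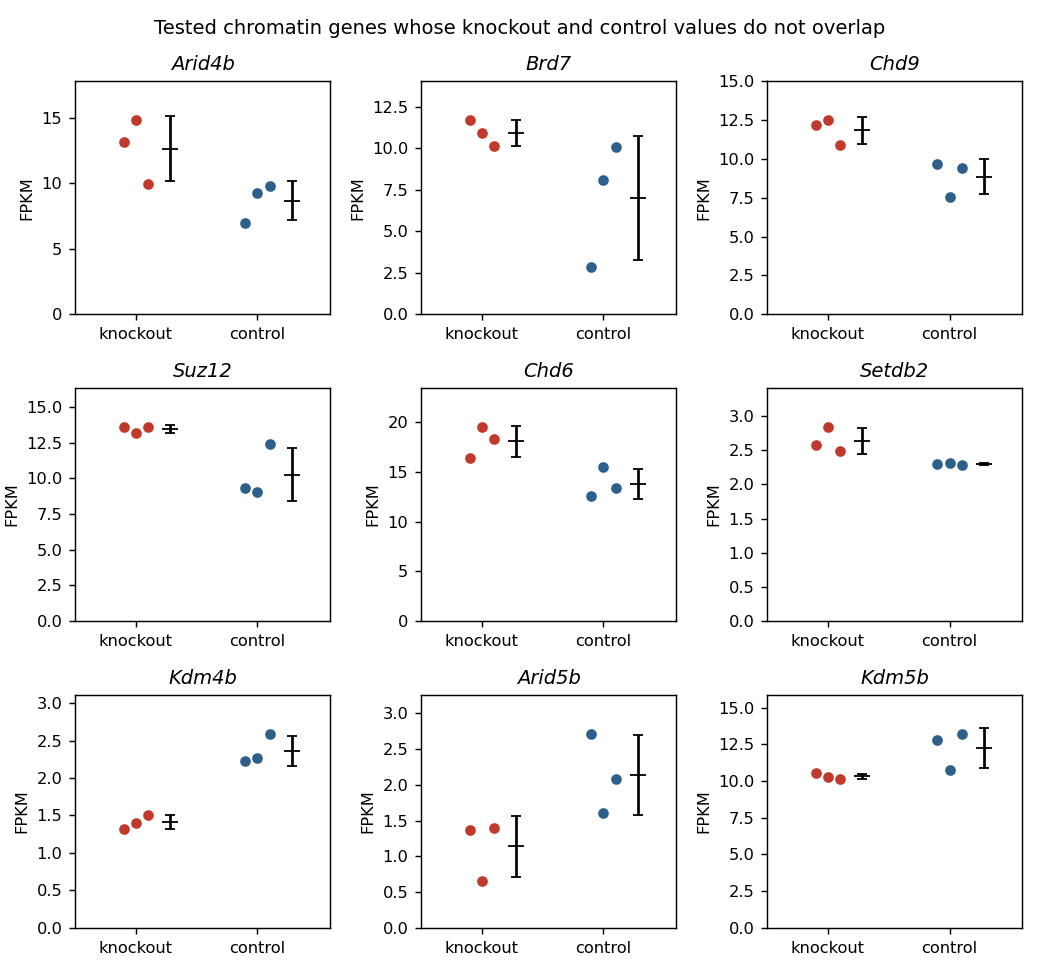
FPKM in each library for the 9 tested chromatin genes whose 3 knockout values (red, left) and 3 control values (blue, right) do not overlap, with mean and SD as black bars. The gaps are narrow for Arid4b, Brd7, Chd6, Kdm5b, Setdb2 and Suz12, and for Brd7 control 1 lies at 2.88 FPKM, below every other library.

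BMAL1 and CLOCK bind the E-box CACGTG, so the promoters of the chromatin genes were searched for it. Windows of 300 bases, from 250 before to 50 after a start listed for the gene in RefSeq (GRCm38.p6), were searched. Both strands are covered by 1 search because the motif is its own reverse complement. A listed start need not be the outer start of the gene in GENCODE, which gave the gene coordinates. Of the 110 genes, 88 matched a window and 7 of these (7.95%) held the motif, against 8.09% of all 27025 genes of the promoter table and 12.6% of the 6593 matched genes that were tested and are not members. The 7 genes were Dnmt3a, Hdac5, Kat5, Kdm4c, Prmt1, Prmt3 and Sirt1. Hdac5 is shown as the most abundant deacetylase gene, and Kdm4c and Sirt1 because each holds the motif at 2 places. Cry1, a clock repressor gene, is shown because it is a BMAL1 target that passed the test in these libraries and holds the motif. Nr1d1 was looked up in the same way and gave no window with the motif, so the search can miss BMAL1 targets. The capitals mark the motif. The windows lie at chr11:102230123-102230422 on the minus strand, chr4:74251629-74251928 on the plus strand, chr10:63338986-63339285 on the minus strand and chr10:85185005-85185304 on the minus strand. In GENCODE the outer starts are 74242497 for Kdm4c and 63381704 for Sirt1, so both windows lie inside the gene. The window of Dnmt3a likewise lies inside its gene.
Hdac5: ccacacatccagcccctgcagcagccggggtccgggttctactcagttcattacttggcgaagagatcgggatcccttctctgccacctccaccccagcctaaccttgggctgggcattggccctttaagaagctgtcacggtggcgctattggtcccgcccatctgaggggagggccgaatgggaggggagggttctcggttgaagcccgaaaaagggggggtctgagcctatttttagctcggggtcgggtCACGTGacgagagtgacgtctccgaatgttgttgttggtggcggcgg
Kdm4c: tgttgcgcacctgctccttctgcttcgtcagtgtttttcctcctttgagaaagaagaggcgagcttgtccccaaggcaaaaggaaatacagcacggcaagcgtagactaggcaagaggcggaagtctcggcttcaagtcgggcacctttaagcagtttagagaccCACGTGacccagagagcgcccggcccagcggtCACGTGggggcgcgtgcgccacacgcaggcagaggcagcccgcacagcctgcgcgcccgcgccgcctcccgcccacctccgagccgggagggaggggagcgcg
Sirt1: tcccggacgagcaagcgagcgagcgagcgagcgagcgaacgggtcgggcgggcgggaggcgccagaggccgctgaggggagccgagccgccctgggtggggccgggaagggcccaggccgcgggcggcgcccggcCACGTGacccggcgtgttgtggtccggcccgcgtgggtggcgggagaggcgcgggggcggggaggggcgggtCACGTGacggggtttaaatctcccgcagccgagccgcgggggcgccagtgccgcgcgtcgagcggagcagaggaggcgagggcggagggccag
Cry1: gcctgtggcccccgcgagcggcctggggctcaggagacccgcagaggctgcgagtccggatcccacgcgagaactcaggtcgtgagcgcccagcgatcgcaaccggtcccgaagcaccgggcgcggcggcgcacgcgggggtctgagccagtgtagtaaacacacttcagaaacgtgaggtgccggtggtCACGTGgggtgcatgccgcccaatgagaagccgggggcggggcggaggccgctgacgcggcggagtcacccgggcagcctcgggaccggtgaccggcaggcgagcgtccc

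Cry1 rose to 18.7, 14.9 and 20.5 FPKM in knockout cones, against 4.56, 6.95 and 6.59 FPKM in control cones (adjusted p = 0.0421, limma). It was chosen because it passed, so it is no benchmark for other genes with the motif, and Nr1d1 changed in the opposite direction. None of the 7 chromatin genes with the motif passed the test, where 0.104% of all tested genes did. Sirt1, the NAD-dependent deacetylase gene, read 7.40, 6.65 and 6.61 FPKM in knockout cones, against 7.82, 5.68 and 7.06 FPKM in control cones, with a log2 difference of 0.01 ± 0.21 (SE, 95% interval from -0.45 to 0.48). Kdm4c, the most abundant demethylase gene, read 29.2, 39.0 and 39.5 FPKM in knockout cones, against 28.5, 23.2 and 30.6 FPKM in control cones, and its lowest knockout value lay between controls 1 and 3. Hdac5 encodes a class IIa deacetylase that shuttles between nucleus and cytoplasm, and it read 50.6, 34.5 and 61.3 FPKM in knockout cones, against 90.1, 60.9 and 61.8 FPKM in control cones (log2 difference -0.54 ± 0.28, SE, adjusted p = 0.900, limma). Control 1 was the highest library for Hdac5 and knockout 3 reached the level of controls 2 and 3, so that the groups overlapped. The log2 differences of the other genes with the motif were -0.46 for Prmt3, -0.41 for Prmt1, -0.15 for Dnmt3a and 0.15 for Kat5, and their groups overlapped as well.

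Chromatin genes were moderately abundant in these cones, with a median of 6.61 FPKM over the tested members, against 4.53 FPKM over all tested genes. The most abundant were Smarca2 at a mean of 84.3 FPKM, Hdac5 at 59.9 FPKM, Sirt2 at 56.5 FPKM and Kmt2e at 50.4 FPKM, which ranked 131, 214, 232 and 270 among the 9720 genes. These 4 were the only members at or above 50 FPKM, and 42 members reached 10 FPKM. All 110 members were above the floor of 0.1 FPKM in every library. The 4 members below the filter were Arid3a, Dnmt3b, Hdac8 and Smarca1, with means of 0.483, 0.835, 0.794 and 0.890 FPKM.

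**Figure D4:**
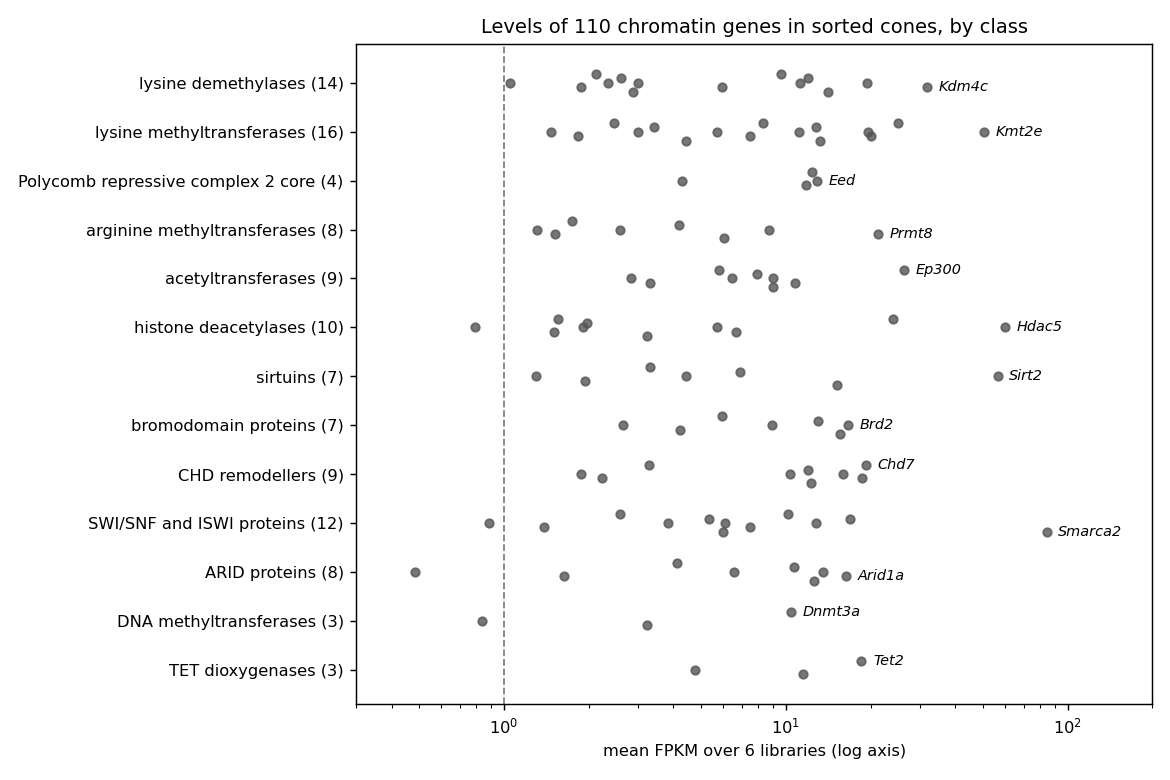
Mean FPKM over the 6 libraries (log axis) of the 110 chromatin genes, 1 point per gene and 1 line per class with its number of genes, small vertical offsets separating points. The dashed line marks the filter of 1 FPKM, and the most abundant gene of each class is named, from Dnmt3a at 10.5 to Smarca2 at 84.3 FPKM.

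Among the genes of DNA methylation, Dnmt3a, which encodes a de novo methyltransferase, was the most abundant, at 8.90, 7.77 and 12.6 FPKM in knockout cones, against 7.76, 9.65 and 16.1 FPKM in control cones. Dnmt1, the maintenance methyltransferase gene, read 3.62, 2.63 and 4.08 FPKM in knockout cones, against 3.16, 2.75 and 3.14 FPKM in control cones. Both groups overlapped for these genes. Dnmt3b, the other de novo methyltransferase gene, lay below the filter and was chosen for mention after its values were seen, at 1.53, 0.928 and 1.47 FPKM in knockout cones, against 0.193, 0.476 and 0.413 FPKM in control cones. Every knockout value of Dnmt3b exceeded every control value, and without the filter its log2 difference was 0.76 ± 0.24 (SE, adjusted p = 0.644, limma). Smarca1, the other member below the filter whose groups were apart, read 1.30, 0.936 and 1.12 FPKM in knockout cones, against 0.664, 0.494 and 0.821 FPKM in control cones. TET dioxygenases oxidise methylcytosine on the way to its removal. Tet2 was their most abundant gene, at 18.9, 23.4 and 16.5 FPKM in knockout cones, against 20.8, 11.5 and 20.3 FPKM in control cones, and control 2 was its lowest library. Tet1 read 6.10, 5.73 and 3.56 FPKM in knockout cones, against 3.09, 3.74 and 6.46 FPKM in control cones, with overlapping groups, and Tet3 averaged 10.9 ± 0.819 FPKM in knockout cones and 12.2 ± 2.54 FPKM in control cones (mean ± SD, n = 3 each).

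Genes of the KMT2 and SETD families, which encode mostly lysine methyltransferases of histones, numbered 16 and split evenly, with 8 positive and 8 negative differences between -0.48 and 0.27. Kmt2e, a trithorax-related gene, was the most abundant, at 57.7, 39.5 and 56.1 FPKM in knockout cones, against 40.9, 39.4 and 68.9 FPKM in control cones. Its exons share 972 bp with those of Srpk2 on the opposite strand. Kmt2a, which encodes the MLL1 methyltransferase of histone H3 lysine 4, read 18.8, 17.7 and 20.2 FPKM in knockout cones, against 23.3, 15.4 and 25.4 FPKM in control cones. Both genes varied more between control libraries than between the groups. Kmt2b, the closest relative of Kmt2a, had the smallest p of the class and read 4.33, 3.75 and 5.44 FPKM in knockout cones, against 6.00, 4.50 and 10.3 FPKM in control cones (adjusted p = 0.916, limma), with control 3 above the other libraries. The summed level of the class was 195, 177 and 194 FPKM in knockout cones, against 185, 156 and 236 FPKM in control cones, and the groups overlapped.

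Polycomb repressive complex 2 methylates histone H3 lysine 27 to keep genes silent. Its core genes had similar levels, apart from a lower Ezh1. Eed, the subunit that reads the mark, averaged 12.7 ± 3.54 FPKM in knockout cones and 13.3 ± 3.86 FPKM in control cones, and Ezh2, the catalytic subunit, averaged 12.2 ± 1.12 FPKM in knockout cones and 12.7 ± 3.25 FPKM in control cones (mean ± SD, n = 3 each). The log2 difference was -0.05 for Eed, -0.03 for Ezh2 and -0.08 for Ezh1, beside 0.37 for Suz12.

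Of the 8 arginine methyltransferase genes, 5 had a positive and 3 a negative difference. Prmt8, which encodes an enzyme found mainly in the nervous system, led the class at 26.2, 21.4 and 19.9 FPKM in knockout cones, against 15.1, 20.8 and 24.2 FPKM in control cones. Prmt3, an enzyme that methylates a ribosomal protein, had the smallest p and read 1.47, 1.54 and 3.02 FPKM in knockout cones, against 4.69, 2.09 and 2.74 FPKM in control cones, with control 1 highest and knockouts 1 and 2 lowest. Prmt1, the main source of asymmetric dimethylarginine in mammalian cells, ranged widely, at 4.72, 6.01 and 11.2 FPKM in knockout cones, against 5.60, 9.44 and 15.6 FPKM in control cones. In both groups of Prmt1 the highest library was over 2 times the lowest.

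The 14 lysine demethylase genes had 7 positive and 7 negative differences, and only Kdm4b and Kdm5b had groups that did not overlap. Kdm5a, an H3 lysine 4 demethylase that binds CLOCK and BMAL1, read 6.15, 7.73 and 5.31 FPKM in knockout cones, against 4.92, 5.76 and 5.89 FPKM in control cones, and the groups overlapped. Its exons share 251 bp with those of Ccdc77 on the opposite strand. Kdm1a, which encodes the demethylase LSD1, read 13.9, 13.6 and 9.46 FPKM in knockout cones, against 9.86, 10.6 and 14.4 FPKM in control cones. The summed level of the class was nearly equal in the groups, at 120.1 ± 8.23 FPKM in knockout cones and 119.6 ± 15.6 FPKM in control cones (mean ± SD, n = 3 each).

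Acetyltransferases loosen chromatin by acetylating histone tails. Ep300, which encodes p300, was the most abundant of the 9 genes, at 32.2, 29.2 and 25.7 FPKM in knockout cones, against 28.1, 14.8 and 28.2 FPKM in control cones. Control 2 stood below the other 5 libraries for Ep300. Crebbp, which encodes its relative CBP, read 7.27, 9.38 and 9.73 FPKM in knockout cones, against 10.1, 7.61 and 9.93 FPKM in control cones. Kat2b, which encodes PCAF, had the smallest p of the class, at 9.96, 9.76 and 10.7 FPKM in knockout cones, against 6.26, 6.95 and 10.7 FPKM in control cones (log2 difference 0.34 ± 0.23, SE, adjusted p = 0.934, limma), and control 3 matched the knockout libraries. Kat7, an acetyltransferase of histones H3 and H4, varied most among knockout libraries of all tested members, at 2.11, 5.66 and 9.11 FPKM in knockout cones, against 7.11, 5.29 and 5.49 FPKM in control cones.

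Histone deacetylase genes had 3 positive and 6 negative differences among 9 tested, with a median of -0.12, and none had groups apart. The summed level was 102, 75.7 and 111 FPKM in knockout cones, against 128, 109 and 118 FPKM in control cones, and Hdac5 held 55.8% of it. Hdac1 and Hdac2 encode the paired class I enzymes of the NuRD, SIN3 and CoREST complexes. Hdac1 read 4.0, 5.99 and 6.76 FPKM in knockout cones, against 6.34, 9.10 and 7.73 FPKM in control cones, and Hdac2 read 31.3, 18.3 and 25.4 FPKM in knockout cones, against 16.3, 24.1 and 29.0 FPKM in control cones. Their log2 differences were -0.42 and 0.11, both with overlapping groups, and that of Hdac1 was -0.23 without knockout 1. Hdac3, the partner of NCoR in repression by REV-ERB, read 3.78, 2.52 and 2.82 FPKM in knockout cones, against 3.45, 3.35 and 3.48 FPKM in control cones. Its 3 control libraries were nearly equal, and knockout 1 lay above them while knockouts 2 and 3 lay below.

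Sirtuins are deacylases that need NAD, a cofactor whose level is under clock control in liver. Sirt2, a mainly cytoplasmic deacetylase, led the 7 genes with 63.1% of their summed level and read 33.2, 47.2 and 60.6 FPKM in knockout cones, against 53.0, 70.3 and 74.7 FPKM in control cones. Knockout 3 lay above control 1, so the groups overlapped (log2 difference -0.51 ± 0.27, SE, adjusted p = 0.909, limma). Without knockout 1 the difference was -0.28. Exons of Sirt2 share 42 bp with those of Nfkbib on the opposite strand. Sirt6, a chromatin-bound sirtuin that interacts with CLOCK and BMAL1, read 1.14, 1.2 and 2.28 FPKM in knockout cones, against 1.29, 2.69 and 3.07 FPKM in control cones. The summed sirtuin level was 70.3, 74.2 and 96.0 FPKM in knockout cones, against 81.3, 98.6 and 116 FPKM in control cones, and after median-ratio scaling every knockout sum was below every control sum, at 72.0, 76.6 and 91.8 FPKM against 92.2, 99.8 and 98.2 FPKM.

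Bromodomain proteins read acetylated histones. Besides Brd7, 3 of the 7 genes had a positive and 3 a negative difference. Brd2, a member of the BET family, was the most abundant and averaged 17 ± 2.14 FPKM in knockout cones and 16.3 ± 3.86 FPKM in control cones (mean ± SD, n = 3 each). Brd3, also of the BET family, read 3.61, 5.0 and 5.44 FPKM in knockout cones, against 9.49, 5.25 and 6.90 FPKM in control cones, and knockout 3 just exceeded control 2 (log2 difference -0.51 ± 0.25, SE, adjusted p = 0.897, limma).

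CHD remodellers, which combine chromodomains with an ATPase, had 7 positive and 2 negative differences, with a median of 0.19. Their summed level was 103, 103 and 102 FPKM in knockout cones, against 86.5, 81.7 and 98.9 FPKM in control cones, so that every knockout sum exceeded every control sum. After median-ratio scaling the sums were 106.0, 106.4 and 97.1 FPKM in knockout cones and 98.2, 82.6 and 83.4 FPKM in control cones, and the groups overlapped. Chd7, mutated in CHARGE syndrome, was the most abundant, at 19.9, 18.4 and 23.2 FPKM in knockout cones, against 19.3, 14.2 and 20.5 FPKM in control cones. Chd4, the ATPase of NuRD, read 12.8, 14.1 and 9.40 FPKM in knockout cones, against 12.7, 11.5 and 13.6 FPKM in control cones. Neither gene had groups apart.

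SWI/SNF complexes, called BAF and PBAF in mammals, move nucleosomes with either of 2 ATPases, Smarca2 (BRM) or Smarca4 (BRG1). The 11 tested genes named Smarc, among them the ISWI ATPase gene Smarca5, had 5 positive and 6 negative differences, from -0.30 to 0.07, and none had groups apart. Smarca2 read 75.9, 62.5 and 94.0 FPKM in knockout cones, against 88.1, 80.3 and 105 FPKM in control cones. It held 53.4% of the summed level of the class. Smarcb1, a core subunit and tumour suppressor, had the smallest p of the class, at 6.68, 4.46 and 8.47 FPKM in knockout cones, against 5.06, 9.79 and 10.4 FPKM in control cones (adjusted p = 0.984, limma). Arid1a, the BAF subunit that led the ARID genes, read 10.1, 18.5 and 16.6 FPKM in knockout cones, against 21.4, 14.4 and 17.6 FPKM in control cones. Control 1 was the highest library and knockout 1 the lowest for Arid1a, with the others between.

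Within families, 1 paralog was regularly the more abundant. Over 12 ratios between members of a family, the same gene was the more abundant in all 6 libraries, and in none of the 12 were the knockout and control ratios apart. The ratio of FPKM of Smarca2 to Smarca4 was 4.93 to 7.43 in knockout cones and 6.00 to 8.72 in control cones. The ratio of Arid1a to Arid1b was 2.96 to 5.42 in knockout cones and 3.46 to 4.24 in control cones, and that of the scaffold genes Smarcc2 to Smarcc1 was 3.02 to 3.48 in knockout cones and 2.79 to 3.67 in control cones. Among NuRD genes, the ratio of Hdac2 to Hdac1 was 3.06 to 7.83 in knockout cones and 2.58 to 3.75 in control cones, and that of Chd4 to Chd3 was 4.31 to 9.67 in knockout cones and 5.25 to 6.83 in control cones. The knockout and control ranges overlapped in each of these pairs. Ep300 was above Crebbp with a ratio of 2.64 to 4.44 in knockout cones and 1.95 to 2.84 in control cones, and Ezh2 was above Ezh1 with a ratio of 2.04 to 4.50 in knockout cones and 2.52 to 3.59 in control cones. The H3 lysine 9 demethylase genes Kdm4c and Kdm4a came closest to ratios that did not overlap. The largest ratio was that of Kdm4c to Kdm4a, at 15.2 to 35.4 in knockout cones and 8.14 to 15.3 in control cones.

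**Figure D5:**
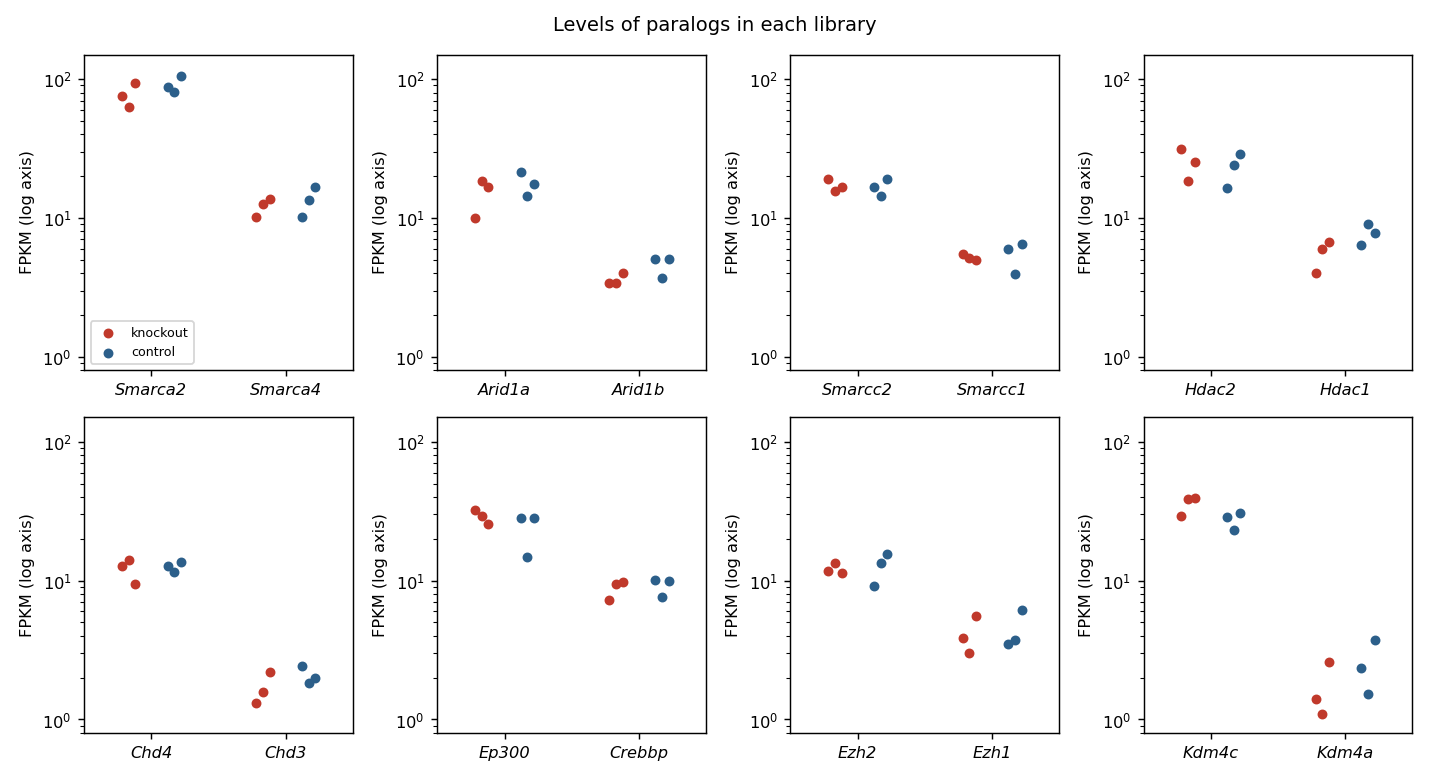
FPKM (log axis) in each knockout (red, left) and control (blue, right) library for 8 pairs of paralogs, the more abundant gene first. In each pair the gene on the left is the higher in all 6 libraries, and the knockout and control points of each gene overlap in range.

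Partners of these enzymes were taken from 11 related lists, which share some genes and together name 215 that are not members. Of these, 189 were in the table and 188 were tested, and 0 passed over all genes in limma. At an unadjusted p under 0.05 there were 0 higher and 3 lower genes, or 1.6% of the 188 against 5.49% of all tested genes, with 90 positive and 98 negative differences and a median of -0.02. The 3 genes were Pagr1a, Pcgf2 and Znhit1. Pagr1a, which encodes a cofactor of the MLL3 and MLL4 methyltransferase complexes, read 2.76, 3.5 and 0.816 FPKM in knockout cones, against 12.2, 5.02 and 10.9 FPKM in control cones (log2 difference -1.65 ± 0.36, SE, adjusted p = 0.229, limma). Pcgf2, a Polycomb repressive complex 1 subunit gene, read 2.69, 3.61 and 3.61 FPKM in knockout cones, against 5.11, 6.92 and 6.61 FPKM in control cones (adjusted p = 0.567, limma). Znhit1, a subunit gene of the SRCAP complex that deposits the variant H2A.Z, read 1.98, 2.29 and 2.32 FPKM in knockout cones, against 3.28, 7.80 and 3.42 FPKM in control cones (adjusted p = 0.771, limma). All knockout values of the 3 genes were below all control values. Of the 188 genes, 5 were higher and 9 lower without overlap between the groups (7.45%), against 9.39% of all tested genes.

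The median log2 difference over the 12 COMPASS subunits was -0.22, with 4 positive and 8 negative, and it lay between -0.34 without knockout 3 and -0.10 without knockout 2. Over the 11 partners of ISWI and CHD and other remodellers it was 0.10, with 7 positive and 4 negative, and it lay between 0.04 without control 2 and 0.23 without control 3. Among COMPASS genes the most abundant was Psip1, which encodes the chromatin tether LEDGF, at 37.4, 40.8 and 31.9 FPKM in knockout cones, against 26.2, 28.3 and 35.7 FPKM in control cones. Atrx, a remodeller that helps to place the variant H3.3 in heterochromatin, led the remodellers, at 73.1, 58.4 and 50.2 FPKM in knockout cones, against 40.6, 41.6 and 54.9 FPKM in control cones. Both had overlapping groups. The 23 Polycomb group genes had 11 positive and 12 negative differences, and Jarid2, their most abundant member and a cofactor of Polycomb repressive complex 2, read 28.7, 19.3 and 28 FPKM in knockout cones, against 21.2, 22 and 35.2 FPKM in control cones. Among HDAC corepressors, 6 of 15 were positive. Ncor1, the corepressor that joins HDAC3 to REV-ERB, was the most abundant of them, at 76.2, 85.0 and 62.4 FPKM in knockout cones, against 63.2, 55.8 and 67.5 FPKM in control cones, and control 3 lay above knockout 3. Sin3a, the scaffold of the SIN3 complex, had groups apart, at 24.8, 22.8 and 19.1 FPKM in knockout cones, against 17.2, 14.4 and 18.0 FPKM in control cones (adjusted p = 0.909, limma). The BAF and PBAF partners had 5 positive and 7 negative differences, with Ss18, a BAF subunit, at 5.19, 3.46 and 3.27 FPKM in knockout cones, against 1.45, 1.79 and 3.96 FPKM in control cones. NuRD partners had 3 positive and 6 negative differences, the other histone lysine methyltransferases 6 and 6, and the INO80, SRCAP and TIP60 subunits 13 and 12. Smyd3, a lysine methyltransferase gene of the other methyltransferases, had groups apart by a narrow gap, at 7.92, 6.52 and 5.76 FPKM in knockout cones, against 4.50, 4.97 and 5.73 FPKM in control cones (adjusted p = 0.929, limma).

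Readers of methylated DNA and heterochromatin had 6 positive and 5 negative differences. Cbx3, which encodes the heterochromatin protein HP1 gamma, was the most abundant of them, at 59.7, 39.7 and 49.5 FPKM in knockout cones, against 33.1, 38.3 and 52.7 FPKM in control cones. Mbd5, of the methyl-CpG-binding domain family, had the smallest p of that list, at 29.7, 25.4 and 16.5 FPKM in knockout cones, against 14.8, 14.2 and 19.3 FPKM in control cones (adjusted p = 0.897, limma), with overlapping groups. Histone chaperones and variants had 15 positive and 9 negative differences. Their most abundant gene was Anp32e, a chaperone that removes H2A.Z, at 208, 344 and 290.3 FPKM in knockout cones, against 190.5, 246 and 290.4 FPKM in control cones. Subunits of SAGA and other acetyltransferase complexes had 15 positive and 20 negative differences, with a median of -0.04. Taf6l, a SAGA subunit gene, had the smallest p among them, at 5.93, 4.76 and 6.03 FPKM in knockout cones, against 8.39, 5.82 and 9.17 FPKM in control cones (adjusted p = 0.911, limma), and knockouts 1 and 3 lay just above control 2.

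The log2 difference moved with base composition in these libraries. Across the 106 members the Spearman correlation between the mean GC content of a gene's transcripts and its log2 difference was -0.42, and across 8615 tested genes it was -0.35. These are descriptions over genes that share the same 6 libraries, and the part of base composition in the differences was not tested. Of the 53 members with the lower GC content, 34 had a positive difference, against 21 of the 53 with the higher GC content. Over all genes with a GC content, the same counts were 2595 of 4308 and 1488 of 4307. Of the 9 members whose groups did not overlap, the 6 higher ones had GC contents from 38.7% for Suz12 to 47.6% for Brd7. Of the 3 lower ones, Kdm5b had 46.3%, Arid5b 48.7% and Kdm4b 58.3%. With exonic length the correlation was 0.02 across the members and 0.15 across all tested genes. The members had a median exonic length of 7145 bp, against 4714 bp over all tested genes.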

How the data were processed

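Poly(A) RNA of sorted mouse cones, from 3 knockout and 3 control libraries, was sequenced in pairs with a strand-directional kit, per the labels. The values are FPKM in a single table that the authors deposited. Tools named in the submitters' processing notes are DESeq2, HTSeq, Cufflinks 2.2.1 and TopHat2 2.1.0, beside the mouse build mm10. The notes do not say which of them gave the FPKM or whether strand was used. Whole reads could not be recovered from the values, so depth is unknown and no counting interval is given.

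Groups come from the genotype labels. Values were tested as log2(FPKM + 1) with limma 3.58.1 in R 4.3.3 (trended empirical Bayes, two-sided, knockout minus control) over the 8627 genes that averaged 1 FPKM or more, with Benjamini-Hochberg adjustment over all of them and a threshold of 0.05. The procedure was also run on simulated data, with planted changes larger than the difference of any tested member. That run does not show whether changes of the size seen in the members would be found. Coordinates, exon overlaps, length and GC content come from GENCODE vM21 (GRCm38), in which all 110 members were found, Prmt10 and Setd8 as Prmt9 and Kmt5a. Named in the text are, per class, the most abundant gene and the one of smallest p, genes whose groups do not overlap, known clock partners, and close paralogs. Related lists could add their most abundant gene and that of smallest p. Other genes were chosen after their values were seen, among them Brd3, Kat7 and Prmt1. 1 gene is not reported here. Members, classes and lists were chosen with earlier results of these data known. Alternatives covered the pseudocount, the filter, scaling, variance trend, library weights, a replicate block and each library left out.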

Additional observations from a re-analysis of the deposited data

How the results depend on the processing

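No chromatin gene and no gene of the related lists was called in limma under any of the 16 alternatives, where the lowest adjusted p of a named member was 0.349. The median log2 difference of the members lay between -0.09 and 0.09 when 1 library was left out. Members at an unadjusted p under 0.05 and higher in knockout cones, 0 as reported, numbered 1 (Dnmt3b) with no filter and 2 with a filter of 5 FPKM. These were 0.909% and 3.12% of members, against 1.43% and 2% of all tested genes. There were 3 each (2.83%) with equal FPKM sums, median ratios, quantile normalization and array weights. The shares of all tested genes were then 3.04%, 2.83%, 3.21% and 3.26%. With 1 library left out the higher members numbered 0 to 4. The lower ones, 2 as reported, numbered 0 with the filter of 5 FPKM, against 3.14% of all tested genes. They numbered 1 with equal FPKM sums (0.943%, against 3.33% of all tested genes) and 6 with array weights (5.66%, against 7.91%). With 1 library left out they numbered 0 to 6. Members whose groups did not overlap, 6 higher and 3 lower as reported, numbered 6 to 17 higher and 4 to 18 lower with 1 library left out, where fewer libraries are compared. The most were 17 higher without control 3 (16% of members and 16.4% of all tested genes) and 18 lower without knockout 3 (17% and 14.7%). The lower ones numbered 1 with the filter of 5 FPKM (1.56% of members and 4.29% of all tested genes) and 8 with median ratios (7.55% and 6.13%). Apart from these smaller sets, the cause of the shifts was not tested. Of 616 values of single named members, 588 kept their sign and side of the threshold and 28 changed sign, none of them called in either case. Array weights, which counted control 1 least, gave log2 differences of 0.073 for Crebbp, 0.11 for Eed, -0.052 for Hdac2 and 0.036 for Kmt2a. With 1 library left out, the range was -0.074 to 0.24 for Brd2, -0.18 to 0.086 for Chd4, -0.18 to 0.056 for Crebbp, -0.35 to 0.13 for Dnmt3a, -0.27 to 0.13 for Eed, -0.23 to 0.12 for Ezh2, -0.11 to 0.31 for Hdac2, -0.022 to 0.24 for Kdm1a, -0.075 to 0.32 for Kmt2e, -0.0050 to 0.32 for Prmt8, -0.097 to 0.10 for Sirt1 and -0.075 to 0.32 for Tet2. Among named members with a difference of 0.3 or more in size that kept their sign, leaving out 1 library moved the value by over 1.5 times for 10, with ranges of 0.25 to 1.0 for Brd7, 0.038 to 0.48 for Ep300, -0.55 to -0.23 for Hdac1, -0.72 to -0.32 for Hdac5, 0.21 to 0.55 for Kat2b, -0.70 to -0.18 for Kmt2b, -0.69 to -0.21 for Prmt3, -0.71 to -0.28 for Sirt2, -0.64 to -0.22 for Sirt6 and -0.60 to -0.090 for Smarcb1. Array weights moved 4 of these by as much, to 0.44 for Brd7, 0.60 for Ep300, -0.25 for Prmt3 and -0.54 for Smarcb1. Of the related lists, the other histone lysine methyltransferases had the highest median with the filter of 5 FPKM, at 0.18, against 0.043 with that of 1 FPKM. Kdm4b and Arid5b each had an unadjusted p under 0.05 in 10 of the 16 alternatives.

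Same-numbered libraries did not deviate together, with correlations of -0.118, -0.085 and -0.034 for numbers 1, 2 and 3, so the numbers are not taken to pair the samples. With the replicate number as a block, 0 members were called, 0 higher and 2 lower members had an unadjusted p under 0.05 and the median log2 difference was 0.01. The overlap counts under quantile normalization were not run. Depth is unknown, so what it limits cannot be stated, and 3 libraries per group leave a median SE of 0.24 for a member's log2 difference.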
